A study of Mus musculus with 2 samples.

Results

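Nos2-expressing phagocytes were the subset of tumor phagocytes that carried at least 3 UMIs (unique molecular identifiers, each marking 1 captured RNA molecule) of Nos2, the inducible nitric oxide synthase. The tumor was a syngeneic fibrosarcoma that had been implanted subcutaneously in C57BL/6 mice of WT genotype. Its digested cells were run through a magnetic column, and both the cells it retained (iron-positive) and those that flowed through (iron-negative) were made into 1 library each with the 10x Genomics 3' v3 chemistry. By the labels all cells shared genotype and tumor model, and the fractions were named for their passage over the column. The number of mice behind each library, their age and any pooling are not given in the sources used here, so differences between the mice or between the library preparations cannot be told apart from the fraction, and the data hold no measure of iron. With 1 library per fraction no test could be made, no p-value is given, and every interval is an exact 95% interval that covers counting error only.

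Phagocytes were barcodes with at least 3000 UMIs, at most 15% mitochondrial UMIs and at least 3 of the 4 genes Csf1r, Cd68, Ctss and Fcgr3 detected. Barcodes with over 1 UMI of Cdh5, over 2 of Rgs5 or over 3 of Col1a1, genes of endothelial cells, pericytes and fibroblasts, were left out. This gave 8279 iron-negative and 7040 iron-positive phagocytes, of 23792 barcodes in all. The 1078 Nos2 cells among them were 488 iron-negative and 590 iron-positive cells, selected on their Nos2 counts, so their Nos2 level is a description and not a result. They were set against the 7136 iron-negative and 5651 iron-positive phagocytes with 0 Nos2 UMIs, called Nos2-zero phagocytes here, while 655 and 799 cells with 1 or 2 Nos2 UMIs lay between.

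Macrophages can spend arginine in competing ways. Nos2, classically induced by interferon gamma together with microbial or TNF signals, turns arginine into nitric oxide and citrulline, whereas arginase 1 (Arg1) turns it into ornithine and urea. The pair is therefore often used to mark opposite macrophage states, although tumor macrophages can carry both. Macrophages also recycle iron: they take up heme, break it down with heme oxygenase 1 (Hmox1), store the iron in ferritin (Fth1 and Ftl1) and release it through ferroportin (Slc40a1). Nitric oxide can bind iron and change how cells sense it.

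The members carried RNA of mononuclear phagocyte genes that the gate did not use. All 11 markers of such cells, among them Lyz2, Tyrobp, C1qa and Adgre1, were detected in the summed UMIs of Nos2 cells of both libraries. Their summed level was 24175 CPM (UMIs scaled to 1000000 per class) in iron-negative and 21484 CPM in iron-positive Nos2 cells. In Nos2-zero phagocytes the same sum was 26081 and 24006 CPM. By sign, 2 of the 11 were higher in Nos2 cells of both libraries, 7 lower in both and 2 opposite. Their median log2 ratios were -0.03 and -0.22. The summed level of 10 neutrophil markers was higher in Nos2 cells. It was 80.8 CPM against 45.9 CPM in Nos2-zero phagocytes of the iron-negative library and 182 against 90.8 CPM in the iron-positive library. After thinning, a marker of this list was found in 22.3% against 12.9% of iron-negative and 32.03% against 20.07% of iron-positive cells. Of the 10, 3 were at 0 in Nos2 cells of each library, with Ly6g and Ngp at 0 in both. The source of the neutrophil marker RNA was not tested. Markers of T or NK cells summed to 3.74 and 4.44 CPM in Nos2 cells, below the 10.1 and 13.5 CPM of Nos2-zero phagocytes, and Cd8a was at 0 in both. Endothelial markers summed to 99.4 against 62.2 CPM in the iron-negative and 79.9 against 75.8 CPM in the iron-positive library, and their part in the results was not tested.

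Depth differed little between the classes compared. The median was 13975 UMIs per Nos2 cell and 14085 per Nos2-zero phagocyte in the iron-negative library, and 12084.5 against 11015 in the iron-positive library. Median mitochondrial shares were 2.86% against 3.29% and 2.42% against 2.96%. The libraries shared 85 barcodes, of which 25 were phagocytes in both, and 3 Nos2 cells of each library carried a shared barcode. Doublets were not called, and leaving out the deepest 5% of cells is an alternative.

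Nos2 cells made up 5.89% (5.397 to 6.42) of iron-negative and 8.38% (7.74 to 9.05) of iron-positive phagocytes, a log2 ratio of 0.51 (0.33 to 0.68). When every phagocyte was thinned to 3000 UMIs, so that no cell counted for more only because it was sequenced deeper, 6.87% of iron-negative and 10.7% of iron-positive phagocytes kept at least 1 Nos2 UMI. Within the iron-negative library the share of Nos2 cells over quartiles of depth was 5.604%, 6.47%, 4.49% and 7.005%, and within the iron-positive library it was 6.31%, 8.64%, 8.52% and 10.1%. The iron-positive share was the higher one in each of the 4 quartiles, which span different depths in the 2 libraries. Other cells of the iron-positive library were read for Nos2 after the same thinning, although their own Nos2 RNA and stray RNA cannot be told apart. Of 123 barcodes with at least 5 Rgs5 UMIs (pericytes), with a median of 18079 UMIs, 0.813% had a Nos2 UMI. Of 242 with at least 5 Col1a1 UMIs (collagen-high), with a median of 20521 UMIs, 2.48% had one. Of 291 with at least 3 Cdh5 UMIs (endothelial), with a median of 17176 UMIs, 7.90% had one. Phagocytes, at a median of 11200.5 UMIs, lay above the intervals of the pericytes and the collagen-high cells. The endothelial interval (5.08 to 11.6) overlapped the phagocyte interval (9.94 to 11.4), and 26 endothelial cells (8.93%) had 3 or more Nos2 UMIs without thinning, beside 8.38% of phagocytes. In the iron-negative library each of these classes had 18 or fewer cells. Of its 165 barcodes with under 3 of the gate genes, at a median of 4718 UMIs, 9.70% (5.64 to 15.3) had a thinned Nos2 UMI, which was not below the 6.87% (6.34 to 7.44) of phagocytes. A share of cells with a single Nos2 UMI was thus not separated from stray RNA in that library. Without thinning, 7 of these 165 barcodes (4.24%) had 3 or more Nos2 UMIs, beside 5.89% of phagocytes at a median of 14131 UMIs. Of 898 such barcodes in the iron-positive library, at a median of 7805.5 UMIs, 41 (4.57%) did, beside 8.38% of phagocytes. The threshold of 3 UMIs was thus not shown to clear stray RNA, and the source of these counts was not tested.

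The Nos2 counts formed a tail rather than a separate group. Iron-negative members carried from 3 to 68 UMIs with a median of 6, and iron-positive members from 3 to 86 with the same median of 6. Cells with 10 or more Nos2 UMIs numbered 143 and 172 and held 52.4% and 52.3% of all phagocyte Nos2 UMIs, while all members together held 85.1% and 84.4%. Just outside the threshold lay 132 iron-negative and 220 iron-positive cells with 2 UMIs, and just inside it 81 and 118 cells with 3.

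**Figure D1:**
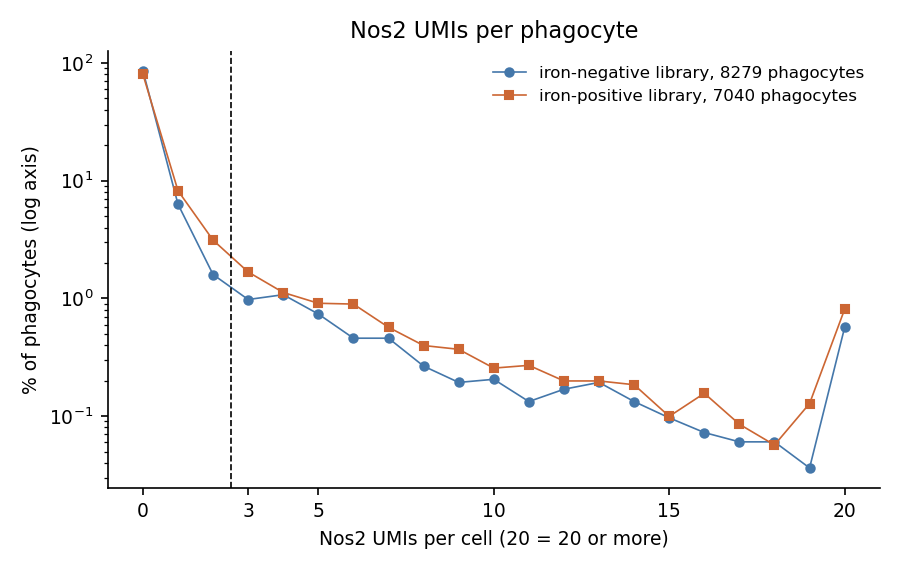
Share of phagocytes (percent, log axis) by number of Nos2 UMIs per cell in the iron-negative (8279 cells) and iron-positive (7040 cells) library; the last point collects cells with 20 or more. The dashed line marks the threshold of 3 UMIs, and the shares decline without a gap across it.

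Arg1 was higher, not lower, in Nos2 cells of both libraries. It stood at 2862 CPM in iron-negative Nos2 cells against 1253 CPM in Nos2-zero phagocytes, a log2 ratio of 1.19 (1.17 to 1.21), and at 3408 against 1726 CPM in the iron-positive library, a log2 ratio of 0.98 (0.96 to 1.0). After thinning to 3000 UMIs, 88.3% (85.1 to 91.0) of iron-negative and 90.5% (87.9 to 92.8) of iron-positive Nos2 cells carried Arg1, against 74.8% and 71.8% of Nos2-zero phagocytes. The median thinned Nos2 cell had 7 Arg1 UMIs in the iron-negative and 9 in the iron-positive library, against 2 in the Nos2-zero phagocytes of each. The 2 transcripts were therefore found in the same barcodes in most members. In other cells of the iron-positive library, Arg1 stood at 28.4 CPM in endothelial cells and 22.5 CPM in pericytes. Nos2 stood at 26.2 and 4.95 CPM in the same cells. Free RNA was not estimated, and the part of free RNA or doublets in the shared barcodes was not tested.

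The converse view gave the same order. Nos2 cells made up 2.88% of iron-negative phagocytes with no thinned Arg1 UMI, 3.64% of those with 1 to 4, 9.64% of those with 5 to 19 and 23.8% of those with 20 or more. In the iron-positive library the shares over the same Arg1 classes were 3.15%, 5.41%, 12.7% and 21.7%. Across Nos2 classes of 0, 1 to 2, 3 to 9 and 10 or more UMIs, Arg1 was 1253, 1846, 2640 and 3397 CPM in the iron-negative and 1726, 2522, 3319 and 3603 CPM in the iron-positive library. Each step was upward in both libraries, and the 2 libraries lay closest together in the class with the most Nos2.

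**Figure D2:**
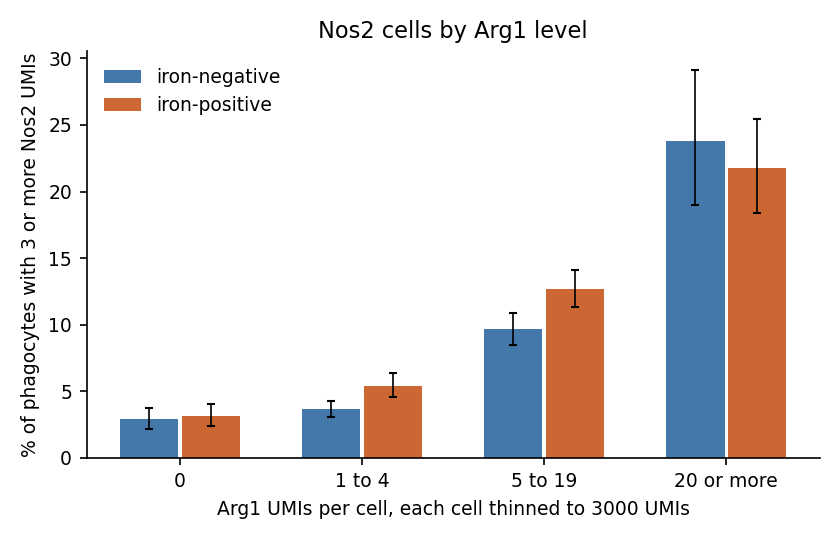
Percent of phagocytes with 3 or more Nos2 UMIs (bars start at 0; whiskers, exact 95% binomial intervals for counting error) by Arg1 UMIs after thinning each cell to 3000 UMIs. In both libraries the share is lowest without Arg1 (2.88% and 3.15%) and highest at 20 or more Arg1 UMIs (23.8% and 21.7%).

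Other genes of arginine use were also higher in Nos2 cells. Slc7a2, an arginine importer of activated macrophages, stood at 190 against 60.4 CPM in the iron-negative library and at 186 against 51.3 CPM in the iron-positive library (log2 1.65 and 1.86). Ass1, which rebuilds arginine from citrulline, stood at 175 against 65.1 CPM and at 157 against 68.5 CPM (log2 1.42 and 1.19). Arg2, the mitochondrial arginase, had log2 ratios of 1.48 and 1.08. Gch1, which starts synthesis of the Nos2 cofactor tetrahydrobiopterin, was at 0.48 in both libraries, while Asl, the step after Ass1, was at 0.08 and -0.29. Odc1, which takes ornithine on to polyamines, was at -0.02 and -0.25, and Srm, which makes the polyamine spermidine, was lower by over 1.5-fold in both libraries (log2 -0.95 and -0.75). Of the 16 members of this list that were measured (10 CPM or more in either class of each library), with Nos2 itself left out, 4 were at least 1.5-fold higher and 2 at least 1.5-fold lower in both libraries. Among all 7504 genes measured, 265 (3.53%) were higher and 322 (4.29%) lower by that rule. The list's median log2 ratio was 0.03 in the iron-negative and -0.25 in the iron-positive library, beside -0.11 and -0.15 over all genes.

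The iron and heme genes were mixed in direction. Of 46 listed genes in the files, 32 were measured in both libraries, of which 3 were at least 1.5-fold higher and 5 at least 1.5-fold lower in Nos2 cells of both, 9.38% and 15.6% of the list beside the 3.53% and 4.29% of all genes. Counted by sign alone, 10 were higher in both libraries, 17 lower in both and 5 opposite. Their median log2 ratio was -0.12 in the iron-negative and -0.08 in the iron-positive library, beside all-gene medians of -0.11 and -0.15. The 3 past 1.5-fold that were higher were Fbxl5, Slc25a37 and Fth1, and the 5 that were lower were Cd163, Tfrc, Cp, Hfe and Steap3. Importers were found on both sides by sign, since Slc11a1 (0.48 and 0.36), which moves iron out of phagosomes, and Slc39a14 (0.47 and 0.13) had positive ratios.

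Fbxl5, the iron-sensing part of a ubiquitin ligase that removes iron regulatory protein 2, was the iron gene with the largest ratio in the iron-negative and in the iron-positive library. It stood at 223 CPM in iron-negative Nos2 cells against 72.5 CPM (log2 1.62, 1.54 to 1.69) and at 383 against 109 CPM in the iron-positive library (log2 1.81, 1.75 to 1.87). It was detected after thinning in 42.2% against 19.1% and in 54.1% against 24.4% of cells. Slc25a37, the mitochondrial iron importer mitoferrin 1, stood at 29.2 against 13.8 CPM and at 55.2 against 25.7 CPM (log2 1.08 and 1.11). Fth1, the ferritin heavy chain, stood at 24311 against 15340 CPM and at 34936 against 22350 CPM (log2 0.66 and 0.64), with medians of 66 against 41 and 89 against 52 thinned UMIs per cell. Ftl1, the light chain, had log2 ratios of 0.32 and 0.24, so the 2 ferritin chains were both higher but by unequal amounts. Both ferritin genes have near-identical copies in the genome, so their counts are uncertain where reads could be split.

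The genes lower in Nos2 cells began with Cd163, the receptor for hemoglobin bound to haptoglobin. It stood at 5.02 against 14.5 CPM in the iron-negative library and at 15.8 against 60.0 CPM in the iron-positive library (log2 -1.51 and -1.92). Tfrc, the transferrin receptor, stood at 10.7 against 19.3 CPM and at 9.002 against 17.8 CPM (log2 -0.85 and -0.98). The ferroxidase gene Cp was at -1.16 and -1.56, the hemochromatosis gene Hfe at -0.91 and -0.99, and the ferrireductase gene Steap3 at -0.68 and -0.81. Ireb2, which encodes the protein that Fbxl5 removes, was at -0.05 and -0.06. Of 13 measured genes of iron-sulfur cluster assembly, 0 passed 1.5-fold in either direction in both libraries, with medians of -0.10 and -0.16.

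The ratio of the heme breakdown gene Hmox1 differed in size between the libraries. Hmox1 stood at 798 CPM in iron-negative Nos2 cells against 348 CPM (log2 1.20) and at 2177 against 1461 CPM in the iron-positive library (log2 0.57). Iron-positive Nos2-zero phagocytes thus held a higher Hmox1 level in CPM than iron-negative Nos2 cells did. At least 1 Hmox1 UMI was detected in most phagocytes of either class. Endothelial cells and pericytes of the iron-positive library also held 104 and 96.7 CPM, and the part of stray RNA was not tested. Without thinning, a UMI was found in 84.6% of iron-negative and 91.9% of iron-positive Nos2 cells, beside 80.4% and 86.1% of Nos2-zero phagocytes. After thinning the shares were 55.7% against 43.7% and 73.1% against 62.0%. The top 5% of cells held 46.8% of the Hmox1 UMIs of Nos2 cells and 44.6% of those of Nos2-zero phagocytes in the iron-negative library, and 30.2% against 44.9% in the iron-positive library. Slc48a1, a heme transporter, had log2 ratios of 0.82 and 0.39, and Blvrb, a biliverdin reductase, of 0.48 and 0.22. The other biliverdin reductase, Blvra, was at -0.33 and -0.25, and Hmox2 was at -0.25 and -0.07. Of 9 measured genes of heme breakdown and synthesis, 3 were higher and 6 lower in both libraries by sign. Of these 9, 0 passed 1.5-fold in either direction in both libraries.

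Slc40a1, the iron exporter ferroportin, was lower in Nos2 cells of the iron-positive library, while its value in the iron-negative library rested on 5 cells. In the iron-negative library it stood at 9.79 CPM in Nos2 cells and 5.13 CPM in Nos2-zero phagocytes, a log2 ratio of 0.94 (0.57 to 1.28). In the iron-positive library it stood at 62.5 against 110 CPM, a log2 ratio of -0.82 (-0.95 to -0.69). The iron-negative value rested on 76 UMIs in 27 of 488 Nos2 cells, with 45 of them in 5 cells, whereas the iron-positive value rested on 507 UMIs in 118 of 590 cells. Without the 5 Nos2 cells that held most Slc40a1 UMIs, an alternative chosen after seeing the data, the iron-negative level was 4.05 against 5.13 CPM (log2 -0.32, -0.91 to 0.18), so the sign turned and the interval included 0. The same step gave 45.2 against 110 CPM in the iron-positive library (log2 -1.28, -1.44 to -1.13). After thinning, 2.05% (0.99 to 3.74) against 1.22% (0.98 to 1.502) of iron-negative cells and 8.47% (6.36 to 11.02) against 13.1% (12.2 to 13.98) of iron-positive cells carried it. The 2 shares of the iron-negative library have overlapping intervals, and those of the iron-positive library do not overlap. Across the 4 Nos2 classes Slc40a1 was lower at each step in the iron-positive library, from 110 through 90.4 and 70.5 to 45.2 CPM, and went from 5.13 through 6.46 and 7.65 to 14.9 CPM in the iron-negative library.

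**Figure D3:**
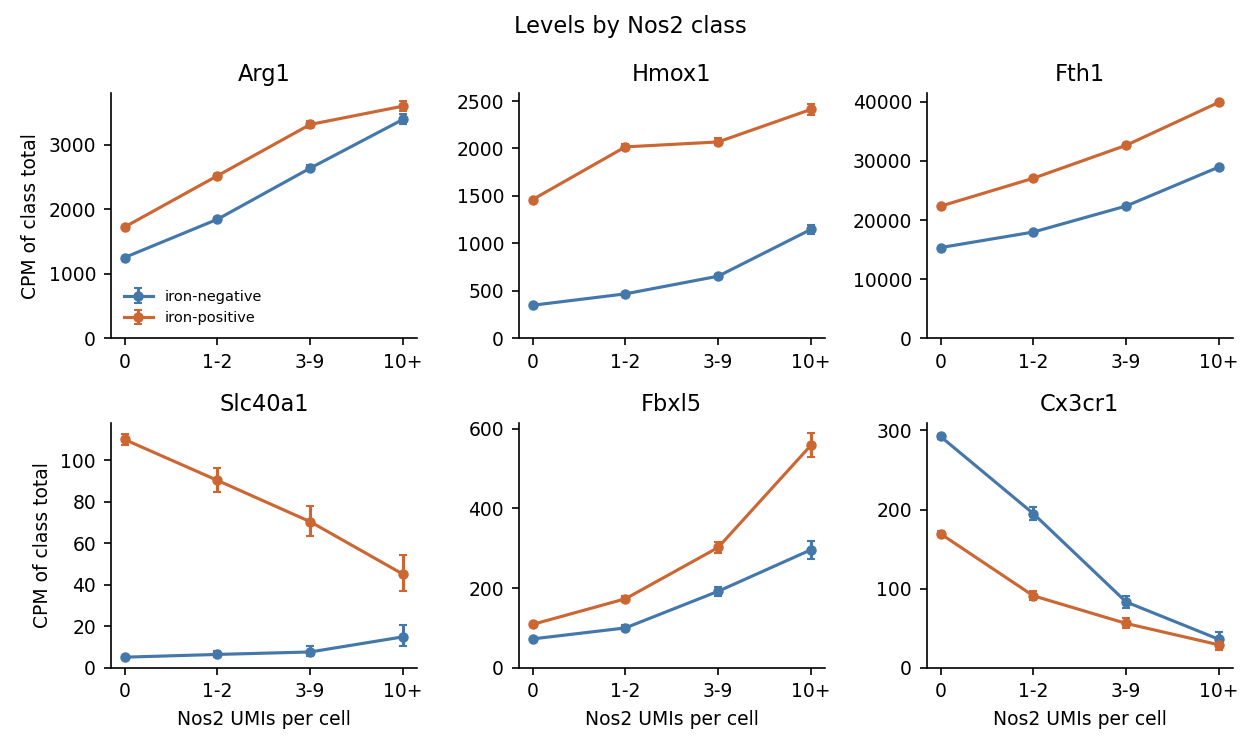
Level of 6 genes (CPM of the summed UMIs of each class, linear axis from 0) in phagocytes with 0, 1 to 2, 3 to 9 and 10 or more Nos2 UMIs; whiskers are exact 95% Poisson intervals for counting error. Arg1, Hmox1, Fth1 and Fbxl5 are higher at each step in both libraries, and Cx3cr1 is lower at each step. Slc40a1 goes down in the iron-positive library (110 to 45.2 CPM) and up in the iron-negative library (5.13 to 14.9 CPM). The last iron-negative Slc40a1 point is 34 UMIs in 143 cells, and 5 cells held 45 of the 76 UMIs of iron-negative Nos2 cells.

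Since Arg1 and Nos2 went together, the iron genes were also compared within Arg1 classes. Among cells with at least 1 Arg1 UMI after thinning (431 and 534 Nos2 cells), Hmox1 had log2 ratios of 1.14 and 0.57, Fbxl5 of 1.59 and 1.82 and Slc40a1 of 0.79 and -0.77. These ratios were close to the values over all cells, which the overlap largely fixed, since the class held most of the 488 and 590 members. Arg1 itself still differed within the class, with log2 ratios of 0.99 and 0.72, so its level was not held equal. Cd163 was less far below 0, at -1.18 and -1.07 beside -1.51 and -1.92 over all cells. Among cells without Arg1 (57 and 56 Nos2 cells), Fbxl5 was still higher (1.63 and 0.99) and Acod1, which makes itaconate, was higher as well (2.77 and 2.21). Hmox1 went in opposite directions there, with 755 against 298 CPM in the iron-negative library (log2 1.34, 1.22 to 1.46) and 596 against 1086 CPM in the iron-positive library (log2 -0.86, -0.99 to -0.74). Cd163 without Arg1 was at -2.85 and -4.64, on 2 and 4 UMIs in Nos2 cells. Slc40a1 without Arg1 stood at 15.7 against 93.3 CPM in the iron-positive library (log2 -2.52) on 14 UMIs. Nos2 cells without Arg1 in the iron-positive library thus held less Hmox1 and Slc40a1 RNA than their Nos2-zero counterparts, on few cells.

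The 2 fractions were then compared within Nos2 cells. Of 30 iron and heme genes measured there, 7 were at least 1.5-fold higher and 0 at least 1.5-fold lower in iron-positive than in iron-negative Nos2 cells, whereas 187 (2.51%) and 252 (3.38%) of 7459 genes passed those limits. The median over the 30 genes was -0.04, beside -0.13 over all genes. Slc40a1 had the largest of these log2 ratios at 2.67, below the 4.42 it had between Nos2-zero phagocytes. Hmox1 had 1.45 against 2.07, Cd163 had 1.64 against 2.05 and Slc48a1 had 0.88 against 1.31. Fth1 (0.52 against 0.54) and Ftl1 (0.60 against 0.68) differed between fractions by nearly the same amount in both classes, and Fbxl5 differed more within Nos2 cells (0.78 against 0.59). Over the 34 genes at 10 CPM or more in either library, the signed ratio was lower in Nos2 cells for 22 (64.7%), beside 61.9% of all 7889 such genes. It was nearer to 0 in Nos2 cells for 17 of the 34, beside 33.1% of all genes, so as many iron genes lay farther from 0 there as nearer to it.

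**Figure D4:**
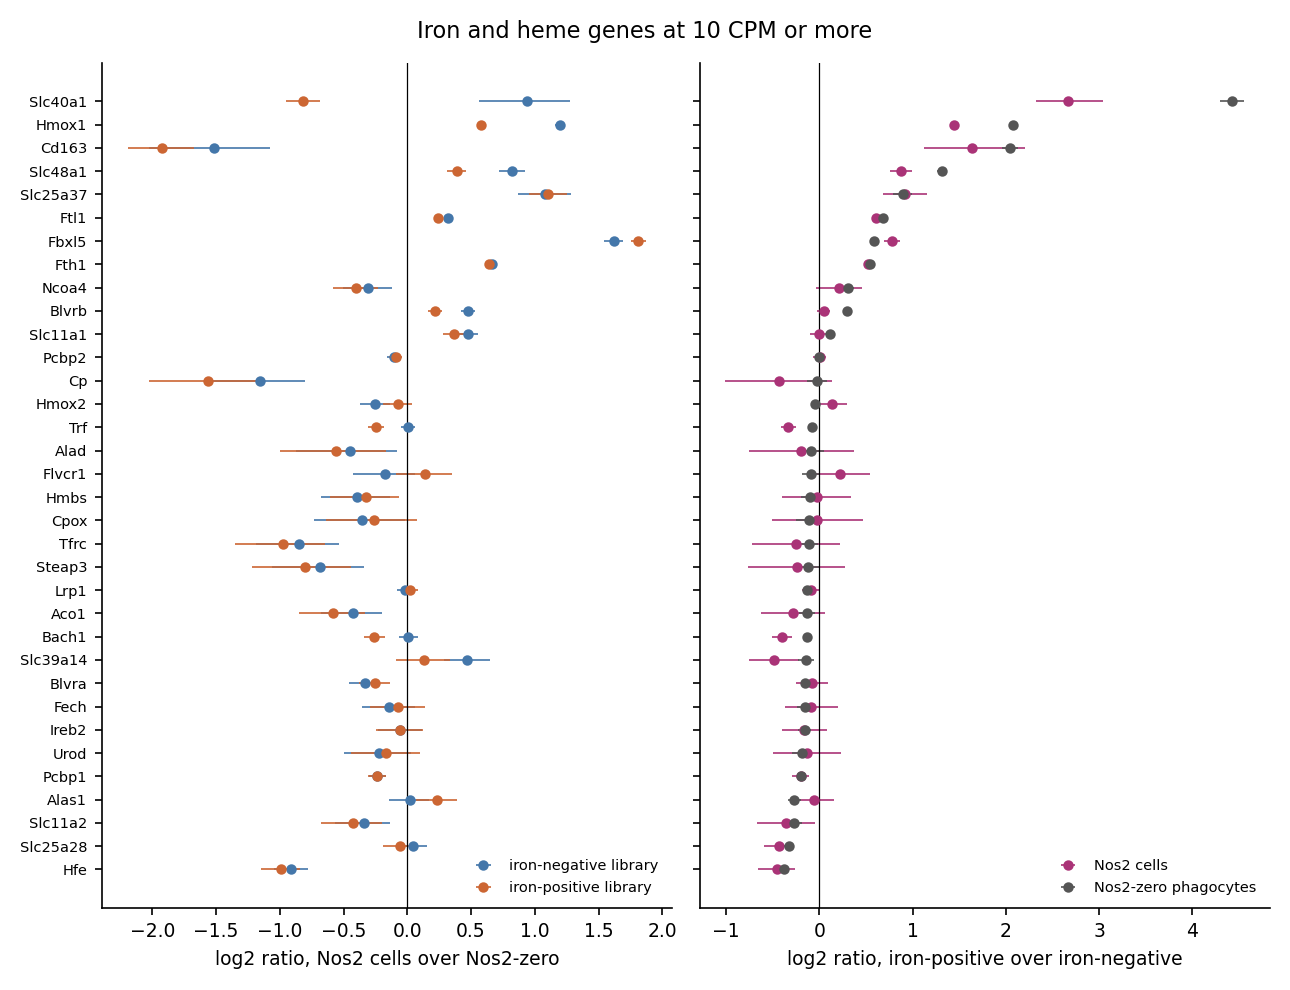
Log2 ratios of 34 iron and heme genes with exact 95% intervals for counting error. Left, Nos2 cells over Nos2-zero phagocytes in each library, where Fbxl5 lies farthest to the right. Slc40a1 is on opposite sides of 0 there (0.94 and -0.82), with the sign of the 0.94 resting on 5 cells. Right, iron-positive over iron-negative in Nos2 cells and in Nos2-zero phagocytes. Slc40a1 and Hmox1 have the widest gaps between the classes there (2.67 against 4.42 and 1.45 against 2.07).

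Over all 7504 measured genes, 87 (1.16%) were at least 2-fold higher and 54 (0.72%) at least 2-fold lower in Nos2 cells of both libraries. With scaling by the median ratio over genes, which raised all log2 ratios because the all-gene medians lay 0.11 and 0.15 below 0, the split was 127 higher and 31 lower. All 227 genes past 2-fold in the iron-negative library had the same sign in the iron-positive library, and so did all 213 past 2-fold in the iron-positive library when read in the iron-negative one. The same 2 libraries supply both classes, and the ratios have no replicate beyond them.

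Among the 12 genes with the largest ratios in both libraries, Tnfrsf9, the costimulatory receptor 4-1BB, came first. It stood at 78.1 against 8.64 CPM in the iron-negative library and at 157 against 20.2 CPM in the iron-positive library (log2 3.18 and 2.96). Inhba, the activin A subunit, stood at 114 against 15.3 CPM and at 209 against 29.9 CPM (log2 2.90 and 2.80). Acod1, the itaconate-making enzyme of activated macrophages, stood at 187 against 36.8 CPM and at 224 against 46.0 CPM (log2 2.34 and 2.28). Clec4e, the glycolipid receptor Mincle, had log2 ratios of 2.34 and 2.45. Cxcl3, a neutrophil-attracting chemokine, had 2.67 and 1.90, and Ccl5, which attracts T cells, had 2.20 and 1.71. Egln3, an oxygen-sensing prolyl hydroxylase, had 2.80 and 1.83, and Ero1l, an oxidase of protein folding, had 1.83 and 1.84. Upp1 (2.65 and 2.11), a uridine phosphorylase, Ly6i (2.45 and 1.98) and the formyl peptide receptor Fpr2 (1.77 and 1.93) completed the set with Slpi, a protease inhibitor. Slpi had 4.72 and 2.39, but 5 of 488 iron-negative Nos2 cells held 532 of its 1064 UMIs there. Detection differed among these genes, since without thinning a Tnfrsf9 UMI was found in 25.4% of iron-negative and 37.5% of iron-positive Nos2 cells and an Ero1l UMI in 80.7% and 86.1%.

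RefSeq promoters (GRCm38.p6) were on hand for 9 of these 12 genes, 12 promoters in all since Tnfrsf9 and Upp1 have several starts, and the 250 bases before each start were searched on both strands for 4 motifs. The NF-kB-like motif, GGG and TTTCC with 2 bases between them, was in 2 of the 12 promoters (Cxcl3 and the second start of Tnfrsf9) and in 1.41% of 32851 promoters of the same length. The hypoxia element ACGTG was in 5 of the 12 (Acod1, Clec4e, Cxcl3, Egln3 and Slpi) and in 16.6% of all promoters. The interferon-type motif TTCNNNGAA was in 2 (Fpr2 and the second start of Tnfrsf9) and in 7.02% of all promoters, and the other interferon-type motif, GAAA and GAAA with 2 bases between them, was in 0 and in 2.98%. Of these promoters, 3 are shown as examples of the motifs found, which are in capitals. In Cxcl3 (chr5:90785851-90786100, plus strand) the capitals are ACGTG on both strands, which overlap, and then the NF-kB-like motif. In Tnfrsf9, at the second of its starts (chr4:150927749-150927998, plus strand), they are TTCNNNGAA and then the NF-kB-like motif. In Egln3 (chr12:54203875-54204124, minus strand) they are ACGTG. A match is a stretch of letters and no evidence of binding.
Cxcl3: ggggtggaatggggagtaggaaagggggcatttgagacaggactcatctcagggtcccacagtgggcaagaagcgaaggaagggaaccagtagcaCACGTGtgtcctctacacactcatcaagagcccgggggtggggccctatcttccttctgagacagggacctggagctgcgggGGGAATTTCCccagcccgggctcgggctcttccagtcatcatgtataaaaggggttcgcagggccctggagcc
Tnfrsf9: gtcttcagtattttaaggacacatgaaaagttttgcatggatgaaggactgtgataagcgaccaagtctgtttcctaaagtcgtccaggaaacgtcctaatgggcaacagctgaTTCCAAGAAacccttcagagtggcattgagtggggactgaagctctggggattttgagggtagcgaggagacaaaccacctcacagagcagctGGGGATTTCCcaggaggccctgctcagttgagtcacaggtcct
Egln3: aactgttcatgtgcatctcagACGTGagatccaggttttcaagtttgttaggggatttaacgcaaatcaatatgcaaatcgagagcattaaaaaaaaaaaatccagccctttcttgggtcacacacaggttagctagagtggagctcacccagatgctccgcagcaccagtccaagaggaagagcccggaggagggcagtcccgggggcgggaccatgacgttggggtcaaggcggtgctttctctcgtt

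The 12 genes with the largest ratios in the other direction were led by Fcrls and Cx3cr1. Cx3cr1, the fractalkine receptor of tissue macrophages, stood at 69.4 against 292 CPM in the iron-negative library and at 47.6 against 169 CPM in the iron-positive library (log2 -2.07 and -1.83). It was found after thinning in 11.3% against 42.3% and in 5.93% against 24.3% of cells. Fcrls, an Fc receptor-like gene known from microglia, had -1.87 and -2.05, the carbonyl reductase gene Cbr2 -1.40 and -1.45, and the bridging ligand Gas6 -1.15 and -1.69. The prostaglandin genes Hpgds (-1.36 and -1.36) and Ptgs1 (-1.23 and -1.58) were lower, whereas Ptgs2, the inducible cyclooxygenase, was higher (1.95 and 1.48). The lectin Cd33 had -1.35 and -1.29, Gpr183, a receptor for oxysterols, -1.17 and -1.41, Igfbp4, which binds insulin-like growth factors, -1.32 and -1.43, Pmepa1 -1.38 and -1.34, and Ntpcr -1.13 and -1.32. Ctsk, a protease gene of osteoclasts, had -2.13 and -1.17, but 5 iron-negative Nos2-zero phagocytes held 4021 of its 5790 UMIs. Its thinned share of cells was 2.05% against 2.76% in the iron-negative library and 6.95% against 4.05% in the iron-positive library, so no order is read for this gene.

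**Figure D5:**
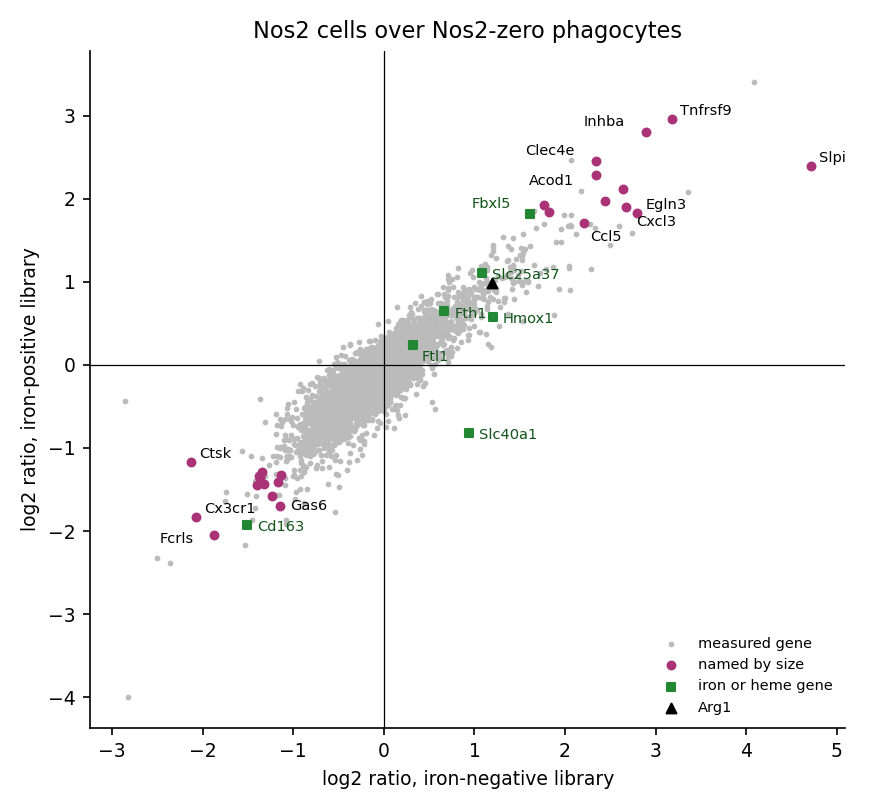
Log2 ratio of Nos2 cells over Nos2-zero phagocytes in the iron-negative (horizontal) and iron-positive (vertical) library; each grey point is 1 of 7504 measured genes. The genes named by size (purple) were chosen to have the same sign in both libraries. Arg1 (triangle, 1.19 and 0.98) and most of the iron genes shown (green) lie on the same side of 0 in both. Slc40a1 does not (0.94 and -0.82), with the sign of the 0.94 resting on 5 cells.

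Gene lists were each read against the 3.53% of genes higher and 4.29% lower by 1.5-fold in both libraries. The lists were chosen with earlier results of these data known, and no test of a list was made. Of 23 measured hypoxia and glycolysis genes, 21 were higher and 0 lower, with a median log2 ratio of 0.78 in the iron-negative and 0.70 in the iron-positive library. Slc2a1, the glucose transporter, stood at 232 against 86.4 CPM and at 277 against 120 CPM (log2 1.43 and 1.20), and the lactate exporter Slc16a3 had 1.23 and 1.02. Hif1a had 0.76 and 0.66, and Vegfa, the vessel growth factor, 0.996 and 0.78. The 2 genes of the list that did not pass were Pdk1 (0.51 and 0.33) and P4ha1 (0.43 and 0.44).

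Of 21 measured interferon gamma response genes, 10 were higher and 0 lower, with medians of 0.64 and 0.58. Socs1, a feedback inhibitor, had 1.55 and 1.40, the guanylate-binding protein Gbp5 1.40 and 1.39, and Cd274, which encodes PD-L1, stood at 402 against 149 CPM and at 547 against 190 CPM (log2 1.43 and 1.53). The receptor genes Ifngr1 (-0.26 and -0.39) and Ifngr2 (-0.11 and -0.26) were not among the higher ones. Of 14 type I interferon response genes, 8 were higher and 0 lower (medians 0.93 and 0.75), with Rsad2, an antiviral enzyme, at 1.77 and 1.70. Of 28 NF-kB, Toll-like receptor and TNF response genes, 13 were higher and 0 lower (medians 0.48 and 0.52). Il1b, the inflammatory cytokine, stood at 1435 against 535 CPM and at 999 against 496 CPM (log2 1.42 and 1.01), and its natural antagonist Il1rn was higher as well (1.24 and 1.29). Tnf (-0.03 and 0.04) and Tlr4 (0.05 and 0.13) had ratios near 0, so the higher genes did not include that cytokine or that receptor.

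Of 15 measured NRF2 targets, genes of the antioxidant response, 4 were higher and 0 lower (medians 0.50 and 0.54). The cystine importer gene Slc7a11 had 1.46 and 1.27, and the glutathione reductase gene Gsr 1.57 and 0.88. Of 7 NADPH oxidase genes, 0 passed 1.5-fold in either direction in both libraries, with the catalytic subunit gene Cybb at 0.37 and 0.56. Of 11 measured monocyte genes, 6 were higher and 0 lower, among them Ly6c2 (1.94 and 0.91) and the coagulation factor gene F10 (2.27 and 1.70), while Ccr2, the monocyte chemokine receptor, was at -0.40 and -0.82. Of 18 genes of resident and alternatively activated macrophages, 1 was higher and 9 were lower (medians -0.74 and -0.70), with the lectin gene Clec10a at -1.08 and -1.91 and Selenop, a selenium carrier, at -0.96 and -1.36. The exception was Chil3 (1.38 and 0.61). Of 15 cell cycle genes, 0 were higher and 10 lower (medians -0.69 and -0.74), with Mki67 at -0.63 and -0.66. MHC class II genes such as H2-Aa (-0.02 and -0.13) had ratios near 0, and 1 of the 10 measured genes of that list was higher, the costimulator gene Cd40 (1.10 and 0.85).

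Genes of several phagocyte states were found in members, some in larger and some in smaller shares than in Nos2-zero phagocytes. The states had been named on these same data, so the state genes are not independent evidence. Mmp12, a macrophage elastase, was found after thinning in 13.7% (10.8 to 17.1) of iron-negative and 51.0% (46.9 to 55.1) of iron-positive Nos2 cells, against 4.64% and 23.98% of Nos2-zero phagocytes. Ifitm1 was found in 30.5% against 14.2% and in 26.3% against 16.8% of cells, and the leukotriene receptor gene Ltb4r1 in 17.8% against 6.70% and in 15.3% against 7.52%. Pdpn, the podoplanin gene, was found in 38.9% against 29.1% and in 51.2% against 34.6%. Syngr1 was lower, in 5.74% against 10.9% and in 9.32% against 12.3%. Of all phagocytes with a thinned Mmp12 UMI, Nos2 cells made up 14.8% in the iron-negative and 15.4% in the iron-positive library. Their share of all phagocytes was 5.89% and 8.38%, so they were a minority of the cells with Mmp12 but above that share.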

How the data were processed

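The files the authors deposited are raw matrices of UMI counts for 32285 genes, in whole numbers and without normalization, per the file headers. Cell Ranger was run on mm10, per the submitters' processing notes, which give version 3.1.0, while the file headers give 5.0.0. Which version made the counts was not settled here. UMIs were summed per class and library and given as CPM. Log2 ratios used each sum plus 0.5, with exact binomial (conditional for ratios) or Poisson intervals at 95%. Library totals were 132796517 iron-negative and 129921053 iron-positive UMIs. Free RNA was not subtracted and doublets were not called.

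The members and gene lists were chosen with earlier results of these data known. Named genes were list members (up to 8 per list, with every iron or heme gene that reached 10 CPM) and 12 genes in each direction. Those 12 had the same sign in both libraries and the largest smaller ratio of the 2, at 50 CPM in the higher class and 100 UMIs per library. The choice by size left out Nos2, the gate genes, receptor segments, gene models, and mitochondrial and ribosomal genes. State genes given as shares of cells, and list members beyond 8, were chosen after their values were seen. The ratio code was tested on simulated counts. The tools were matplotlib 3.10.9, pandas 2.3.3, scipy 1.17.1, numpy 2.4.6 and Python 3.11.15. Alternatives changed the limits on depth, mitochondrial share, Nos2 UMIs and other cells' genes, the summing, the scaling, the thinning and the gene minimum. One gene counted in the list of arginine use is not reported by name here.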

Additional observations from a re-analysis of the deposited data

Results flagged for a closer look

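Slc40a1, the iron exporter, was higher in Nos2 cells than in Nos2-zero phagocytes of the iron-negative library (log2 0.94) and lower in the iron-positive library (log2 -0.82), so the contrast had opposite signs in the 2 fractions. The difference between the fractions was not tested, since each gave 1 library. Over the alternatives planned for this gene, the iron-negative value lay between 0.74 and 1.22 and the iron-positive value between -0.87 and -0.67. The iron-negative value rested on 76 UMIs in 27 cells, with 45 of the UMIs in 5 cells. Without those 5 cells it was -0.32 (-0.91 to 0.18), and without 5 such cells of each class -0.031 (-0.63 to 0.47), so the opposite sign rested on 5 cells. In the iron-positive library the same steps gave -1.28 and -1.21. Both steps were chosen after seeing the data. The sign was also opposite among cells with Arg1 (0.79 and -0.77) and among cells without it (1.69 and -2.52, on 10 and 14 UMIs in Nos2 cells). These classes are parts of the same cells, the 5 cells included, and 66 of the 76 iron-negative UMIs lay in cells with Arg1. They are thus no further support for the opposite sign.

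Among cells without Arg1, Hmox1 (1.34 and -0.86) and the heme transporter gene Slc48a1 (1.001 and -0.52) also had opposite signs in the iron-negative and iron-positive library, on 57 and 56 Nos2 cells, and the difference was not tested. Among the genes of the lists and those named by size, the others whose counting intervals lay on opposite sides of 0 in the 2 libraries were the chemokine gene Ccl8 (0.57 and -0.53, with 4751 against 3208 and 2467 against 3551 CPM), Gbp2b (0.24 and -0.16), Fcer1g (0.075 and -0.034) and H2-Ab1 (0.033 and -0.083), again untested. Over all 7504 measured genes, 41 (0.546%) had such intervals, and 0 of these were past 1.5-fold in both libraries. Of those named, Fcer1g and H2-Ab1 were the closest to 0.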

How the results depend on the processing

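No paired analysis was possible because each fraction gave 1 library, and no replicate could be left out. The share ratio kept its direction (0.44 to 0.63 on the log2 scale). Arg1 stayed higher in both libraries. Its iron-negative log2 ratio was 1.14 and 1.25 with at least 2 or 5 Nos2 UMIs, 1.30 as a mean of each cell's CPM, 1.30 without the top 5% of UMIs, 1.16 after thinning and 1.31 with median-ratio scaling. Its iron-positive ratio was 0.90 and 1.07 with at least 2 or 5 Nos2 UMIs, 1.14 as a mean, 0.96 at 5000 UMIs, 0.96 with 0 UMIs of 8 genes of other cells, 1.07 without the top 5% and 1.13 with median-ratio scaling. The iron median of Nos2 cells over Nos2-zero phagocytes changed sign in 2 cases: it was 0.027 in the iron-negative library for genes at 50 CPM or more, and 0.068 in the iron-positive library with median-ratio scaling. Between fractions within Nos2 cells the iron median, -0.04, turned to 0.018 after thinning, 0.088 with median-ratio scaling and 0.024 at 50 CPM. In the iron-positive library the first median was also -0.17 as a mean of each cell's CPM and -0.20 for genes with at least 1 UMI. The genes at least 2-fold higher numbered 49 at 50 CPM and 1237 with no minimum beyond 1 UMI. Those lower numbered 35 and 86 with at least 2 or 5 Nos2 UMIs, 101 as a mean, 108 without the top 5%, 31 with median-ratio scaling, 14 at 50 CPM and 336 at 1 UMI. A gene minimum changes how many genes are counted; for the other settings the cause was not tested. Slc40a1 in the iron-negative library turned from 0.94 to -0.32 without the 5 Nos2 cells with most of its UMIs and to -0.031 without 5 such cells of each class, both chosen after seeing the data. Of 9977 single-gene values over the 13 other alternatives, all 2134 of genes past 2-fold kept their sign. Ctsk came nearest to 0, at -0.16 in the iron-positive library after thinning. Depth limits Slc40a1 and Cd163 in iron-negative Nos2 cells, with 76 and 39 UMIs.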

Other observations

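Of 14 measured genes linked to lipid-laden macrophages, 4 were at least 1.5-fold higher in Nos2 cells of both libraries and 1 was lower, beside 3.53% and 4.29% of all genes. The lower one was Ctsk, whose ratio rested on few cells. The higher ones were Mmp12 (log2 2.60 in the iron-negative and 1.67 in the iron-positive library), Cd9 (0.75 and 1.03), the galectin gene Lgals3 (0.74 and 0.62) and Gpnmb (0.998 and 0.63), while below 1.5-fold Trem2, a lipid-sensing receptor, was at -0.20 and -0.13 and Apoe, a lipid carrier, at -0.50 and -0.58. Of 10 measured genes listed as checkpoint and suppressive factors, 3 were higher and 0 lower by that rule, read against the same shares. They were Cd274, Pdcd1lg2, which encodes PD-L2 (1.14 and 0.90), and Trem1 (1.03 and 0.66). Trem1 was on the list although it is not itself a checkpoint or suppressive gene. The suppressive cytokine gene Tgfb1 was at -0.14 and -0.22.

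Some genes of other cell types stood apart in Nos2 cells. S100a8, a calprotectin gene abundant in neutrophils, stood at 20.9 against 4.82 CPM in the iron-negative and 65.2 against 21.9 CPM in the iron-positive library. The summed level of the 10 neutrophil markers was also higher in Nos2 cells of both libraries, although the marker Ly6g was at 0 in Nos2 cells of both. The immunoglobulin gene Ighm was lower, at 8.11 against 42.1 CPM and 5.55 against 29.2 CPM.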
